A study of Homo sapiens with 6 samples.

Results

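Imprinted genes are transcribed mainly from the copy inherited from 1 parent, and the 10 described here are H19, IGF2, MEG3, DLK1, PEG10, PEG3, MEST, SNRPN, KCNQ1OT1 and CDKN1C. They were chosen by name as widely known imprinted genes, with earlier results of these data known. All 10 were found by symbol among the 60609 genes counted in each library. DLK1, H19 and CDKN1C, which were among the better expressed of the 10 in control cells, fell 47.7-fold, 9.64-fold and 12.7-fold when TRRAP could not attach to the TIP60 complex. PEG10 rose 2.08-fold, KCNQ1OT1 was lower by less than the fold of 2 used to call a gene, and MEST was about level. IGF2 and MEG3 had no count in any library, and PEG3 and SNRPN had at most 3 counts in any library.

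The cells were K562, an established human leukaemia line with erythroid features, in which every endogenous copy of EP400 carries a C-terminal FKBP12-based degradation tag. EP400 is the scaffold and remodelling ATPase of TIP60, a chromatin complex that exchanges and acetylates histones, and TRRAP is the large subunit that contacts transcription factors. The tagged cells were complemented from the AAVS1 safe-harbour locus with either WT EP400 or EP400 lacking the SANT and HD domains that hold TRRAP (Delta-TRRAP). All libraries were made from cells given 500 nM dTAGV-1, the compound that degrades the tagged protein, for 24 h. Each group had 3 libraries of poly(A) RNA. Both groups derive from 1 tagged clone, and 1 clone of each complemented line was used, so the genotype and the clone cannot be told apart. Untreated cells were not analysed here.

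In a typical imprinted cluster, DNA methylation laid down in the egg or the sperm marks an imprinting control region, and that mark sets which parental copy is transcribed. H19 and IGF2 share a control region bound by CTCF on the unmethylated maternal copy, where CTCF separates IGF2 from its enhancers. KCNQ1OT1 is a long antisense RNA made from the paternal copy that silences CDKN1C and other genes of its domain in cis. DLK1 and MEG3 are likewise transcribed from opposite parental copies of 1 cluster. The counts used here sum both parental copies, so neither the parental origin of a transcript nor the methylation of a control region was measured.

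The libraries held 35076835 to 42616061 counts. EP400 RNA, which contains both tagged endogenous and complementing transcripts, was 5057 ± 277 normalized counts in WT and 5574 ± 1238 in Delta-TRRAP (SD, n = 3), with overlapping groups, and its RNA level is no measure of the degraded protein. Over all genes tested, 16.5% were called higher and 6.08% lower in Delta-TRRAP. The 13 erythroid markers of K562 were present in both groups, with 3 called higher and 2 lower. Their summed level was 5959 to 6016 CPM (counts scaled to library size) in WT and 4150 to 4287 CPM in Delta-TRRAP, but TFRC, the transferrin receptor, made up most of it. Without TFRC the other 12 summed to 1025 to 1074 CPM in WT and 1818 to 1947 CPM in Delta-TRRAP. Stromal markers, which leukaemia cells largely lack, moved unevenly. The summed level of the 16 was 55.7 to 61.5 CPM in WT and 366 to 478 CPM in Delta-TRRAP, and FN1 and SPARC made up most of the latter. The other 14 summed to 35.2 to 39.4 CPM and 45.3 to 53.9 CPM. Of the 9 stromal markers tested, 5 were called higher and FBN1 lower, and 3 of these 9 passed the filter through 1 group only. COL6A3, COL1A1 and DCN were not called, with log2 fold changes of −0.53, 0.06 and −0.41. LUM, PDGFRA, POSTN, PRRX1 and THY1 were at 0 in WT, and FAP, LUM and PDGFRA were at 0 in Delta-TRRAP. The 9 epithelial markers summed to 615 to 634 CPM in WT and 647 to 692 CPM in Delta-TRRAP, with KRT7 at 0 in WT. Of the 5 tested, EPCAM (log2 fold change −1.54) and CLDN7 were called lower, and KRT18 and KRT19 had log2 fold changes of 0.67 and 0.87 below the fold of 2. The part of these shifts in the results below was not tested, and in bulk RNA fewer cells of a type cannot be told apart from less RNA per cell.

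Of the 10 genes, 4 lie in 1 stretch near the end of the short arm of chromosome 11 (GENCODE 44 on GRCh38, the assembly the study calls hg38). H19 lies on the minus strand at chr11:1995166-2004552 and IGF2 on the same strand at chr11:2129112-2158391. KCNQ1OT1 (chr11:2597308-2700003, minus strand) runs antisense through an intron of KCNQ1, and CDKN1C (chr11:2883213-2885775, minus strand) follows it. DLK1 (chr14:100725705-100738224) and MEG3 (chr14:100779410-100861031) are neighbours on the plus strand. PEG10 (chr7:94656325-94669695) and MEST (chr7:130486171-130506465) are on the plus strand of the long arm of chromosome 7. SNRPN is at chr15:24823637-24978723 on the plus strand and PEG3 at chr19:56810077-56840728 on the minus strand. H19, MEG3 and KCNQ1OT1 are long noncoding RNAs, and the other members are annotated as protein coding.

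H19 carries within an exon the hairpin of miR-675, and its 250 bases upstream of the RefSeq start were read from the GRCh38.p14 promoter table (chr11:2001267-2001516, minus strand). The upstream sequence of NDN, a paternally expressed gene of the SNRPN cluster, is shown beside it (chr15:23687306-23687555, minus strand), because NDN moved the other way. NDN reached the minimum mean of 5 normalized counts needed for testing only through Delta-TRRAP, where it is high. The 2 sequences are a description of genes picked for their directions, and a link between sequence and direction was not tested. Each promoter is written 5′ to 3′ with every CpG, the dinucleotide that can be methylated, in capitals. In the mature miRNAs the capitals mark the seed, bases 2 to 8.
H19 upstream: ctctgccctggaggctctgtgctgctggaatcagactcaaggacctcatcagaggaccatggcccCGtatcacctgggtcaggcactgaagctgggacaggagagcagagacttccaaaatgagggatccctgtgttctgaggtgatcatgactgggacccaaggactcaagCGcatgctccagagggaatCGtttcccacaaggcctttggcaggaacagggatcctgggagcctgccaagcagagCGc
NDN upstream: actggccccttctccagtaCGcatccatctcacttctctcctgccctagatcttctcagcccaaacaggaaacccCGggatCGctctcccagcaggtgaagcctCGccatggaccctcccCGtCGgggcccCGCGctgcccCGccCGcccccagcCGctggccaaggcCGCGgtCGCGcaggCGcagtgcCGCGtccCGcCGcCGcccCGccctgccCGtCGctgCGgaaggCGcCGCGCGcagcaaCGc
miR-675-5p: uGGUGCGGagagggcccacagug
miR-675-3p: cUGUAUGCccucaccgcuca

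The H19 stretch held 4 CpG and the NDN stretch 30. Over the whole 300-base window, which adds 50 bases after the start, H19 had 6 CpG and NDN 35, against a median of 14 over 35116 RefSeq promoter windows. The seeds of the 5p and 3p arms differ. MIR675 as a gene of its own had 0 counts in all libraries, but its bases lie in an H19 exon on the same strand. Reads shared by genes were dropped in the counting, so that 0 says nothing about its RNA. Mature miRNAs are also not captured by poly(A) selection, so no level is given for them. Promoter windows were found for 4 of the 10 members: H19, MEG3, MEST and SNRPN. The letters TGCCGC, the site of the imprint-protecting factor ZFP57 once methylated, were sought on both strands and occurred in 16.7% of all windows. They were absent from the H19 window and present in each MEG3 window, in NDN, and in some of the MEST and SNRPN windows. The letters GGNGGCAG, part of the CTCF motif, occurred in 16.7% of all windows and in some MEST and SNRPN windows, and were not found in the H19 window. The H19 window (chr11:2001217-2001516) lies inside the annotated span of H19, chr11:1995166-2004552. Whether this RefSeq start is the one used in these cells, and whether the window overlaps the control region, was not examined. The E-box CACGTG and the YY1 letters GCCATNTT occurred in 7.3% and 6.6% of all windows, and neither was found in the H19 window.

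Genes were tested with the edgeR quasi-likelihood test and Benjamini-Hochberg adjustment over 19114 genes, and a gene was called at an adjusted p of at most 0.01 and a fold change of at least 2. Of the 10 members, 8 had a count and 6 reached the minimum mean of 5 normalized counts needed for testing. All 6 had a mean above that minimum in each group. Of these 6, 3 were called lower and 1 higher in Delta-TRRAP, where over all genes tested 22.6% were called, 6.08% lower and 16.5% higher. For 5 of the 6 the WT and Delta-TRRAP libraries did not overlap, as for 71.1% of all genes tested. The median log2 fold change of the 6 was −1.90, beside 0.03 over all genes tested. The 2 tested members that are usually expressed from the maternal copy, H19 and CDKN1C, both fell. Of the 4 that are usually expressed from the paternal copy, DLK1 fell, PEG10 rose, and KCNQ1OT1 and MEST were not called.

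**Figure D1:**
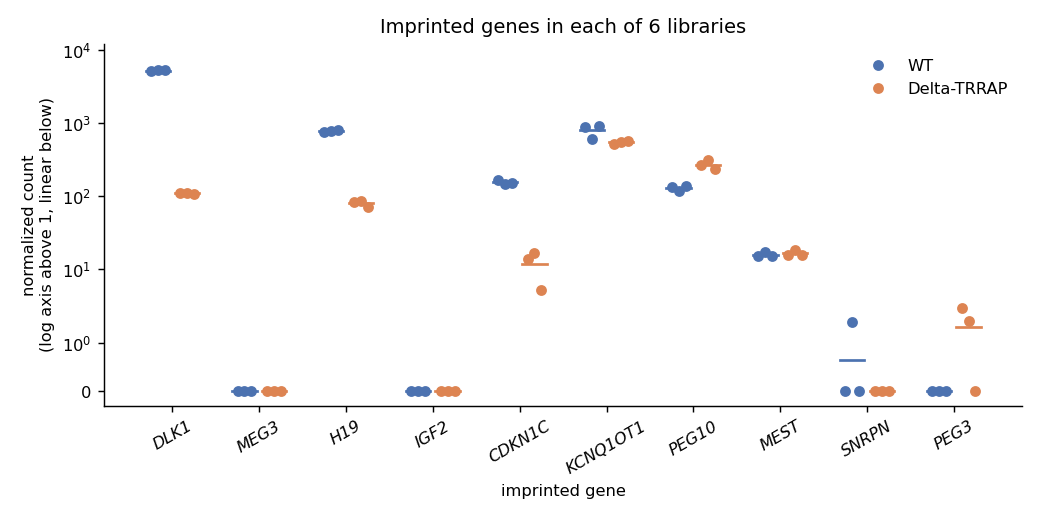
Normalized counts of the 10 imprinted genes in each library (points, axis logarithmic above 1 and linear below it) and group means, with WT and Delta-TRRAP side by side. The Delta-TRRAP points lie below WT for DLK1, H19, CDKN1C and KCNQ1OT1 and above it for PEG10, while those of MEST overlap and IGF2 and MEG3 stay at 0.

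DLK1 encodes a transmembrane, Notch-ligand-like protein known for holding precursor cells undifferentiated. In the WT libraries it had 5094, 5266 and 5245 normalized counts, and in the Delta-TRRAP libraries 109, 112 and 106. Every WT library was far above every Delta-TRRAP library, and the libraries of each group were close together. The mean fell from 5202 ± 94.2 to 109 ± 3.17 (SD, n = 3), a log2 fold change of −5.58 ± 0.07 (SE) with an adjusted p of 7.58e-17 by edgeR. The residual signal still rested on 326 raw counts over the 3 Delta-TRRAP libraries, so the gene was low in these cells and not at 0. None of its annotated exon bases is shared with another gene. MEG3, the maternally expressed noncoding RNA beside DLK1, had 0 counts in all 6 libraries. A count of 0 allows up to 3 counts per library, and this limit covers counting error only. RTL1, a retrotransposon-derived gene of the cluster that is usually expressed from the paternal copy, was near the testing minimum, with 3.97 ± 0.88 and 6.38 ± 1.33 normalized counts and an adjusted p of 0.248 (edgeR).

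H19 is a noncoding RNA abundant in fetal tissues and in many tumours. It had 743, 781 and 790 normalized counts in WT and 83.4, 84.8 and 70.9 in Delta-TRRAP. The groups did not overlap, and the lowest WT library was well above the highest Delta-TRRAP library. The mean fell from 771 ± 24.9 to 79.7 ± 7.66, a log2 fold change of −3.27 ± 0.09 (adjusted p = 1.19e-13, edgeR). Its reciprocal partner IGF2, a fetal growth factor, was at 0 in all libraries. That 0 is limited by the counting. Of the IGF2 exon bases 43.2% and of the coding bases 76.2% also belong to another gene on the same strand, INS-IGF2 among them. Reads that fall in shared bases were discarded. The other 4062 exon bases are unshared in GENCODE 44, and no read was counted for IGF2 there. INS-IGF2 and INS were at 0 as well. MRPL23, a mitochondrial ribosomal protein gene next to H19, had 870 ± 71.2 normalized counts in WT and 871 ± 46.3 in Delta-TRRAP.

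CDKN1C encodes p57, an inhibitor of cyclin-dependent kinases, and is usually expressed from the maternal copy. It had 165, 146 and 154 normalized counts in WT and 13.7, 16.6 and 5.29 in Delta-TRRAP. All WT libraries were higher, and the third Delta-TRRAP library, with 5 raw counts, was the lowest. The log2 fold change was −3.67 ± 0.22 with a 95% interval of −4.14 to −3.20 (adjusted p = 9.56e-10, edgeR). Only 36 raw counts support the Delta-TRRAP level, so the size of this fall is known less closely than those of DLK1 and H19.

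KCNQ1OT1, the antisense RNA of the same domain, had 872, 606 and 896 normalized counts in WT and 519, 549 and 570 in Delta-TRRAP. The groups did not overlap, but the second WT library was much closer to the Delta-TRRAP libraries than to the other WT libraries. The log2 fold change was −0.53 ± 0.11 (adjusted p = 0.00065, edgeR), which passed the p threshold and not the fold of 2. Without WT replicate 2 it was −0.71. CDKN1C and KCNQ1OT1, which are usually expressed from opposite parental copies, were thus both lower in Delta-TRRAP, by very different amounts. PHLDA2, a placental growth restrictor usually expressed from the maternal copy of that domain, fell from 69.1 ± 6.93 to 20.01 ± 1.81 normalized counts (log2 fold change −1.78 ± 0.19, adjusted p = 8.26e-07, edgeR). ASCL2, a trophoblast transcription factor of that domain named here after its values were seen, had 84 raw counts over the WT libraries and 1 over the Delta-TRRAP libraries, a ratio of 0.012 with a counting interval of 0.0003 to 0.0686. SLC22A18, TSSC4, CD81 and NAP1L4 of the same domain had log2 fold changes of 0.43, −0.19, −0.02 and −0.22, and none was called.

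PEG10, a paternally expressed gene derived from a retrotransposon and needed for the placenta, had 134, 116 and 137 normalized counts in WT and 263, 309 and 232 in Delta-TRRAP. Every Delta-TRRAP library was higher than every WT library, and the Delta-TRRAP libraries were the more spread. The mean rose from 129 ± 11.4 to 268 ± 38.9, a log2 fold change of 1.06 ± 0.12 (95% interval 0.80 to 1.31, adjusted p = 1.43e-06, edgeR). The call sits at the edge of the fold of 2: the log2 fold change was 0.97 without WT replicate 2 and 0.95 without Delta-TRRAP replicate 2, and the gene was then not called. SGCE, the sarcoglycan gene that starts beside PEG10 on the other strand and is also paternally expressed, was named after its values were seen. It had 2, 1 and 1 raw counts in WT and 34, 38 and 31 in Delta-TRRAP, a log2 fold change of 4.57 ± 0.40 (adjusted p = 6.74e-08, edgeR). SGCE passed the minimum mean only through Delta-TRRAP, so its fold and p are a description and are not read as support for the rise of PEG10. Of the 20 tested genes nearest to PEG10, 10 on each side, 9 were called higher and 0 lower, with a median log2 fold change of 0.94. Over all genes tested, 16.5% were called higher and 6.08% lower. SGCE, COL1A2 and PON1 are among the 9 and passed the minimum mean only through Delta-TRRAP, so the count and median are not read further.

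MEST, a paternally expressed gene for a hydrolase-like protein of mesoderm, was low in both groups, with 15.2, 17.3 and 15.3 normalized counts in WT and 15.7, 18.5 and 15.9 in Delta-TRRAP. The groups overlapped. The log2 fold change was 0.07 ± 0.27 with a 95% interval of −0.50 to 0.64 (adjusted p = 0.842, edgeR), which at 98 raw counts in all leaves room for a change of modest size in either direction. CEP41, a ciliary gene listed in the same cluster, rose from 199 ± 24.2 to 618 ± 39.2 normalized counts (log2 fold change 1.63 ± 0.09, adjusted p = 4.07e-10, edgeR). COPG2, a listed partner that overlaps MEST on the other strand, had a log2 fold change of −0.10 ± 0.05 and was not called.

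SNRPN, which encodes a small nuclear ribonucleoprotein of the Prader-Willi region, had 2 raw counts in the second WT library and 0 in all others. As for IGF2, the counting limits what this says, since 43.9% of its exon bases and 92.8% of its coding bases are shared on the same strand with SNURF, SNHG14 or other genes. PEG3, a zinc finger gene usually expressed from the paternal copy, had 0 raw counts in WT and 3, 2 and 0 in Delta-TRRAP. No fold is given for either gene, because both groups were at or below the limit of 3 counts per library.

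Levels were compared between genes per kilobase of exon, as CPM per kb. In WT the order was DLK1 (25.5 ± 0.46), H19 (5.73 ± 0.18), CDKN1C (1.61 ± 0.10), PEG10 (0.496 ± 0.044), KCNQ1OT1 (0.22 ± 0.045) and MEST (0.0858 ± 0.0063), and no neighbours in this order overlapped. In Delta-TRRAP PEG10 stood first at 1.03 ± 0.15, followed by H19 at 0.592 ± 0.057 and DLK1 at 0.534 ± 0.016. KCNQ1OT1 was at 0.152 ± 0.0072, CDKN1C at 0.123 ± 0.061 and MEST at 0.09 ± 0.0086. H19 and DLK1 overlapped in Delta-TRRAP, as did KCNQ1OT1 with CDKN1C and CDKN1C with MEST. The 6 genes thus covered a much narrower range of levels in Delta-TRRAP than in WT.

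**Figure D2:**
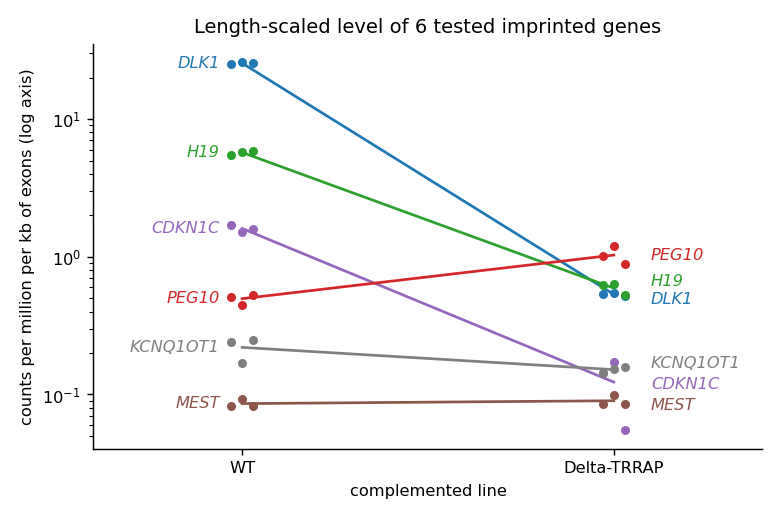
Levels per kilobase of exon (CPM per kb, log axis) of the 6 tested members in WT and Delta-TRRAP, with group means joined by lines and each library as a point. DLK1 drops from 25.5 to 0.534 and PEG10, below CDKN1C in WT, is the highest in Delta-TRRAP.

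To see whether the genes that share clusters with the 10 moved with them, 51 cluster partners were listed. Of these 49 were in the files, 38 had a count and 20 were tested. There were 7 called higher and 2 lower, where over all genes tested 16.5% were called higher and 6.08% lower. The median log2 fold change was 0.42, beside 0.03 over all genes tested. Of the 20, 6 passed the minimum through 1 group only, and 5 of those 6 were called, so the count is not read further. In the SNRPN cluster, NDN, a MAGE-family gene of the Prader-Willi region, had 1, 5 and 4 raw counts in WT and 777, 704 and 709 in Delta-TRRAP. Its mean rose from 3.29 ± 2.01 to 733 ± 40.7 normalized counts, a log2 fold change of 7.73 ± 0.18 (adjusted p = 2.02e-14, edgeR). NDN passed the minimum mean only through Delta-TRRAP, the group where it is high. NPAP1 of the same cluster had 3 raw counts over the WT libraries and 52 over the Delta-TRRAP libraries, a ratio of 17.5 with a counting interval of 5.65 to 87.4. MKRN3, a ring finger gene beside NDN, was already at 565 ± 14.5 normalized counts in WT and reached 751 ± 53.1 (log2 fold change 0.41 ± 0.07), which did not pass the fold of 2. UBE3A, a ubiquitin ligase imprinted in neurons, had a log2 fold change of −0.08 ± 0.05 (adjusted p = 0.151, edgeR).

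In the PEG10 cluster, CALCR, the calcitonin receptor, rose from 10.9 ± 3.31 to 72.2 ± 2.50 normalized counts, and TFPI2, a protease inhibitor, rose from 15.9 ± 2.52 to 114 ± 19.4. Not every tested gene there rose. The partner PON2, at 1269 ± 59.6 in WT and 1312 ± 26.3 in Delta-TRRAP, had a log2 fold change of 0.05 and was not called. CASD1, listed below with the other imprinted genes, had a log2 fold change of −0.10 and was not called. PON1, named after its values were seen, had 0 raw counts in WT and 33 in Delta-TRRAP, at least 3.64-fold higher against a limit of 3 counts per library. COL1A2, a collagen gene that is no listed imprinted gene and one of the stromal markers, lies in the same region and rose from 1.62 to 876 normalized counts.

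**Figure D3:**
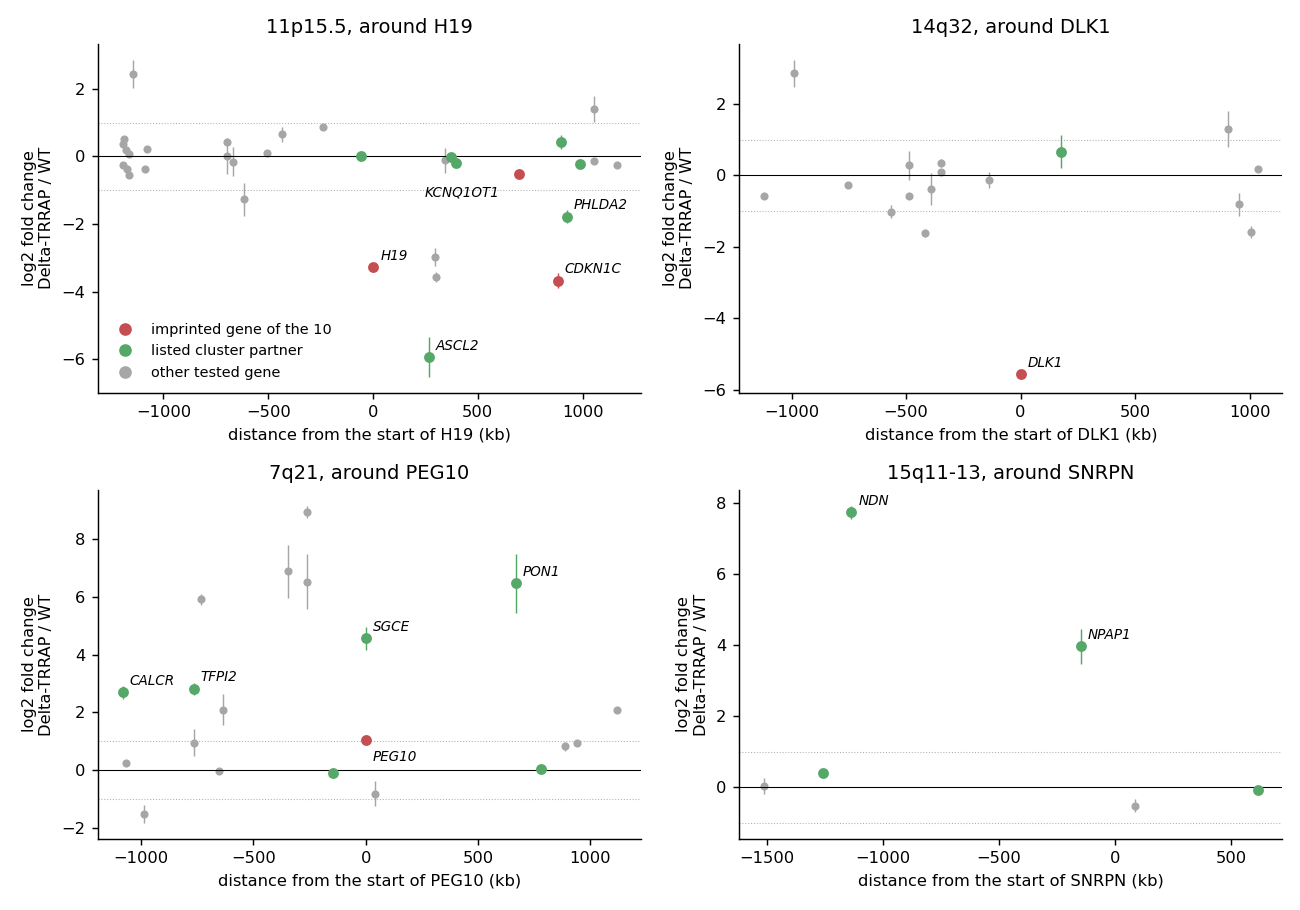
Log2 fold change (Delta-TRRAP over WT, bars are SE) of tested genes against distance in kb from the start of H19, DLK1, PEG10 and SNRPN. The 10 imprinted genes are red, listed partners and CASD1 green and other genes grey, and dotted lines mark a fold of 2. ASCL2, PON1, NPAP1, AC002074.1 and AC002074.2 have 0 to 3 counts in 1 group, so the heights of their points depend on the fit. H19, ASCL2, CDKN1C and PHLDA2 lie below the lower line around H19, and DLK1 is the lowest point of its region. Around PEG10, 11 of 20 genes, PEG10 included, were called higher, beside 16.5% of all genes tested. Of the 11, SGCE, COL1A2, PON1, AC003092.1, AC002074.1 and AC002074.2 passed the minimum mean only through Delta-TRRAP, so this count is not read further.

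Around the members, neighbouring genes gave different pictures. Over all genes tested, 6.08% were called lower and 16.5% higher, which stands beside each count in this paragraph. Within 1200 kb of the start of H19 33 genes were tested, and 6 were called lower and 2 higher. The 6 were H19, ASCL2, CDKN1C, PHLDA2, TSPAN32 and C11orf21. ASCL2 passed the minimum mean only through WT, and the 2 higher genes, AP006623.1 and AC108448.3, only through Delta-TRRAP, so the count is not read further. TSPAN32 and C11orf21, which lie beside ASCL2, had log2 fold changes of −2.98 and −3.57. Within the same distance of DLK1 4 of 17 tested genes were called lower and 1 higher, and DLK1 itself changed most. The higher gene was EML1, a microtubule-binding protein gene, with a log2 fold change of 2.86, and it too passed the minimum mean only through Delta-TRRAP. SLC25A29, a mitochondrial carrier gene, was among the 4 lower with a log2 fold change of −1.62. Of the 20 tested genes nearest to DLK1, 3 were called lower and 2 higher, with a median of 0.05. A change in the number of DNA copies was not measured.

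A further 40 imprinted genes were listed as belonging to other clusters, and 31 were tested. CASD1 is among the 31 although it starts 147 kb from the start of PEG10. Of these 6 were called higher and 4 lower, where over all genes tested 16.5% were called higher and 6.08% lower. The median log2 fold change was 0.03, beside 0.03 over all genes tested. COBL, FAM50B and LRRTM1 passed the minimum mean only through Delta-TRRAP, and COBL and FAM50B are among the 6, so the count and median are not read further. COBL, a cytoskeletal gene, had 0 raw counts in WT and 288 in Delta-TRRAP, at least 32.1-fold higher against a limit of 3 counts per library. ZDBF2, a paternally expressed gene with a DBF-type zinc finger, rose from 10.7 ± 3.49 to 212 ± 26.7 normalized counts (log2 fold change 4.30 ± 0.20, adjusted p = 6.30e-11, edgeR). DIRAS3, a small GTPase regarded as a tumour suppressor, rose from a mean of 196 to 999 (log2 fold change 2.35 ± 0.07, adjusted p = 3.08e-13, edgeR). KCNK9, a potassium channel, and ZNF331, a zinc finger gene, rose by 1.75 and 1.08 on the log2 scale.

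L3MBTL1, a chromatin-binding protein gene on the long arm of chromosome 20, fell from 242 ± 33.0 to 48.8 ± 9.97 normalized counts (log2 fold change −2.32 ± 0.15, adjusted p = 3.09e-09, edgeR). Its 20 nearest tested neighbours had a median of −0.49. In GENCODE 44, 21.7% of the exon bases and 84.4% of the coding bases of L3MBTL1 are shared with other genes on the strand. Reads in such bases may have been dropped. ZC3H12C, an RNA-binding zinc finger gene, fell from 1621 ± 39.6 to 416 ± 54.8, and the antisense RNA WT1-AS fell from 333 ± 14.8 to 153 ± 7.79. HYMAI and FAM50B, named after their values were seen, were also called, at log2 fold changes of −1.02 and 2.63. GNAS and GRB10, which are highly expressed, had log2 fold changes of −0.75 and −0.70 and passed the p threshold without reaching a fold of 2.

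Genes that set, protect or read imprints were mostly a little lower. Of 30 listed regulators 25 were tested, and 23 of the 25 had a negative log2 fold change. The median was −0.30, beside 0.03 over all genes tested. Only 3 were called lower and 1 higher, where over all genes tested 6.08% were called lower and 16.5% higher. With scaling by library size alone, 18 of 25 were negative, while the median of all genes moved from 0.03 to 0.17. UHRF1, which recruits the maintenance methyltransferase to replicated DNA, fell from 3437 ± 144 to 1399 ± 41.5 normalized counts (log2 fold change −1.30 ± 0.05, adjusted p = 1.24e-11, edgeR). DNMT3B, a de novo DNA methyltransferase, fell from 6110 ± 246 to 2727 ± 65.8, and the 20 tested genes nearest to it had a median log2 fold change of −0.47. EED, a core subunit of the Polycomb complex that methylates histone H3, fell from 5829 ± 244 to 2670 ± 211. DNMT1, the maintenance methyltransferase, had a log2 fold change of −0.34, TRIM28, the corepressor that ZFP57 recruits, −0.59, and CTCF −0.17, and none of these was called. The remaining called gene was NLRP5, an oocyte gene named after its values were seen, which passed the minimum mean only through Delta-TRRAP, with 3, 1 and 0 raw counts in WT and 16, 15 and 13 in Delta-TRRAP. ZFP57, DPPA3 and KHDC3L were at 0 in all libraries.

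IGF2 acts through the insulin-like growth factor (IGF) receptors, and H19 and several imprinted genes bear on that pathway. Of 18 genes of this axis 13 were tested, with 5 higher and 1 lower and a median log2 fold change of 0.65. Over all genes tested, 16.5% were called higher and 6.08% lower. IGFBP3 and IGFBP5, both among the 5, passed the minimum mean only through Delta-TRRAP, so the count and median are not read further. With DESeq2 4 were called higher. Among binding proteins, IGFBP4 fell from 6366 ± 133 to 244 ± 0.97 normalized counts (log2 fold change −4.70 ± 0.06, adjusted p = 9.59e-17, edgeR), whereas IGFBP5 rose from 2.30 ± 2.03 to 68.0 ± 7.14. IGFBP3, named after its values were seen, also rose, to 13.04 ± 3.47 normalized counts. Among receptors, INSR, the insulin receptor, rose from 87.3 ± 7.47 to 677 ± 106, while IGF1R had a log2 fold change of 0.23 and an adjusted p of 0.0192 (edgeR). The imprinted receptor IGF2R had a log2 fold change of 0.65 and did not reach a fold of 2. The adaptor IRS1 rose from 22.1 ± 8.67 to 298 ± 21.9, and the ligand IGF1 rose from 939 ± 6.94 to 2412 ± 135.

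**Figure D4:**
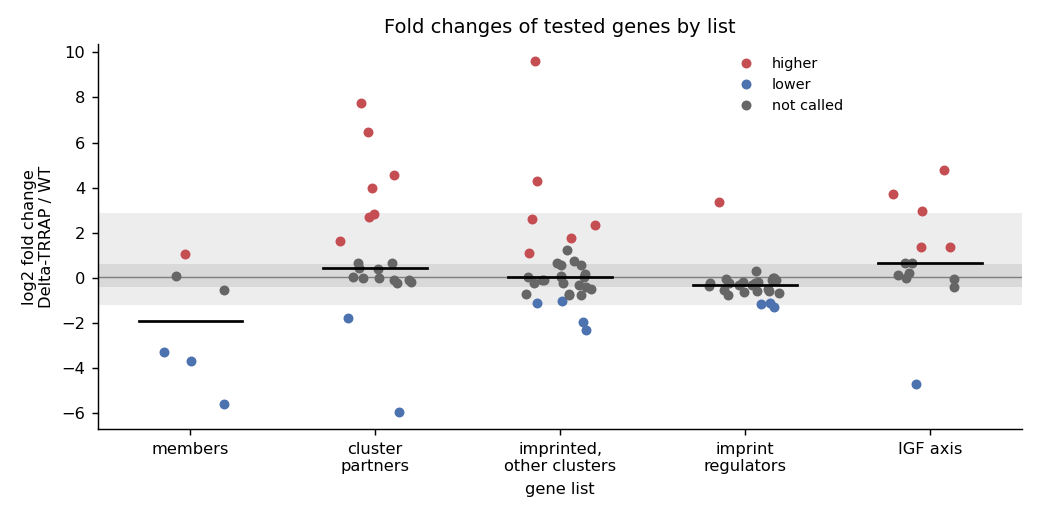
Log2 fold change (Delta-TRRAP over WT) of each tested gene in 5 lists, coloured by call, with the list median as a black bar. Dark and light grey bands hold the middle 50% and 90% of all genes tested, and the medians are −1.90 for the 6 tested of the 10 imprinted genes, 0.42 for cluster partners, 0.03 for other imprinted genes, −0.30 for regulators and 0.65 for the IGF axis.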

How the data were processed

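Poly(A) RNA of 6 K562 libraries, 3 per group by sample title, was measured by stranded RNA-seq. The authors deposited raw counts per gene: uniquely mapped reads (STAR, hg38) counted on GENCODE genes with HTSeq 2.0.2 in reverse-stranded union mode, which drops reads shared by genes. The deposited tables of normalized signal and of the authors' comparison (fold changes and p-values) were not used, nor were 3 columns of another condition. Counts were tested with edgeR 4.0.16 (R 4.3.3): TMM scaling, quasi-likelihood F test on group alone, a minimum mean of 5 normalized counts, Benjamini-Hochberg adjustment, and calls at an adjusted p of at most 0.01 and a fold of at least 2. The study used DESeq2 with these thresholds. Normalized counts are counts over a library factor, the effective (TMM) size scaled to a geometric mean of 1. Errors are SD (n = 3) or SE. Library totals of 35076835 to 42616061 set the precision. The scripts were tested on simulated data.

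Positions and exon lengths came from GENCODE 44, a later release than the one used by the authors, and 19041 of 19114 tested genes matched by ID. The sequences are from RefSeq tables on GRCh38.p14. Members, lists and tests were chosen with earlier results of these data known. All members were named. From the lists, called genes with a mean of at least 20 normalized counts were named (at most 8 a list outside the cluster partners), with tested partners of the H19, DLK1 and SNRPN clusters, and others are marked in the text as named afterwards or serve as context. The labels call the libraries biological replicates, and chi-square over its degrees of freedom was 4.93 to 15.5 for pairs within a group, above counting noise. The replicate numbers did not pair the libraries. Alternatives were DESeq2 1.42.0, 2 other scalings, 2 filters, a fold of 1.5, the replicate block, leaving out each library, and levels on unshared exon bases.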

Additional observations from a re-analysis of the deposited data

How the results depend on the processing

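DLK1, H19 and CDKN1C were called lower in all 12 alternative fits, and KCNQ1OT1 kept its direction without a fold of 2. With each library left out in turn, the log2 fold change was 0.95 to 1.15 for PEG10, which was not called without WT replicate 2 or Delta-TRRAP replicate 2, and of −0.0085 to 0.12 for MEST, which turned negative without Delta-TRRAP replicate 2. DESeq2 called 3794 genes against 4322 by edgeR, 3767 of them shared with the same direction. A minimum mean of 50 left 3 called cluster partners of 9 and 1964 called genes, since fewer genes were tested. A fold of 1.5 gave 6750 called genes, 9 imprint regulators in place of 4 and 16 other imprinted genes in place of 10. Library-size scaling raised the share of higher calls from 73.1% to 79.6% and called 2 imprint regulators and 2 other imprinted genes lower in place of 3 and 4. Replicate numbers did not pair the libraries (correlations −0.0351 to −0.0108), and the replicate block gave 4184 called genes and changed no call of a member. The 5 higher calls in the IGF axis were 4 with DESeq2, with the block and in each fit with 1 library left out except that without Delta-TRRAP replicate 2, 3 at a minimum mean of 50 and 7 at a fold of 1.5. Levels on unshared exon bases divided the same counts by fewer bases, and reads were not recounted. The 14 values compared moved by less than 1 SD. Those of DLK1, PEG10, MEST, KCNQ1OT1 and CDKN1C could not move, because these genes share no exon bases. The comparison therefore does not show how many reads were lost to shared bases. Summing gene IDs was not run, because each symbol had 1 ID. At fewer than 20 normalized counts, as for MEST, the depth limits what change can be detected.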
